A study of Sordaria macrospora with 16 samples.

Results

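The peaks described here lie in the outermost 100 kb of the chromosomes of *Sordaria macrospora*, a filamentous ascomycete. They come from chromatin immunoprecipitation followed by sequencing (ChIP-seq) of mycelium, with antibodies against histone H3 trimethylated at lysine 27 (H3K27me3) and against histone H3 itself. A peak was taken as subtelomeric when its midpoint lay within 100 kb of a chromosome end. The assembly has 7 chromosomes, and the right end of chromosome 2, which holds the rRNA gene array, was left out, so 13 ends with 1.3 Mb in all remained, or 3.30% of the genome. Of 45528 peaks in 8 lists, 890 met this rule. Values measured at the peaks did not enter the choice.

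The design had 2 strains and 2 antibodies, with 2 biologically independent replicates of each combination. The mutant strain was Δasf1, in which the gene for the histone chaperone ASF1 is deleted and which also carries a duplicated segment of chromosome 2 outside the ends. It was set against the wild type with an intact *asf1* gene. All cultures grew in liquid complete medium under constant light at 27 °C, Δasf1 for 3 days and the wild type for 2 days, so growth time and strain cannot be told apart. Fixed chromatin of both strains was digested with micrococcal nuclease (230 U/ml for 105 min). Each library is represented by a list of broad regions of enrichment, so the extent of a mark is given as the share of DNA inside peaks and its strength as the fold enrichment the caller assigned to each peak.

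ASF1 escorts H3-H4 dimers to the factors that assemble and disassemble nucleosomes. H3K27me3 is written by the Polycomb repressive complex PRC2 and is associated with silent chromatin. In filamentous fungi such as the related *Neurospora crassa* it forms broad domains, many of them next to the telomeres, over genes that are mostly not transcribed. An H3 immunoprecipitation reports where nucleosomes are recovered, whatever their modification, and was used here as the comparison for the modified histone.

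The number of peaks at the ends was 81 and 124 in the H3K27me3 lists of Δasf1, against 147 and 140 in those of the wild type. The H3 lists held 110 and 70 end peaks in Δasf1, against 88 and 130 in the wild type. Over the genome the lists were of similar size, with 4401 to 6525 peaks. The authors' cutoff was stricter for replicate 1 than for replicate 2, whichever the strain or antibody. The lowest −log10 q of a list was 2.02 to 2.05 in replicate 1 and 1.00 to 1.03 in replicate 2. For this reason, ratios within each replicate number stand beside those of the means. With 4 libraries in each test the exact permutation test has 6 assignments and cannot give a p below 0.333, so no comparison here can pass 0.05. The lists hold no read counts, and the depth behind each peak is unknown.

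H3K27me3 covered far less of the ends in Δasf1 than in the wild type. In Δasf1 6.12% and 14.4% of the 13 ends lay in H3K27me3 peaks, against 26.8% and 64.1% in the wild type. The strains did not overlap, although replicate 2 was more than 2 times as high as replicate 1 in both. The covered length averaged 133.6 ± 76.3 kb in Δasf1 and 590.4 ± 342.7 kb in the wild type (SD, n = 2 each), a ratio of 0.226 (exact permutation, two-sided p = 0.333, the smallest this design allows). It was 0.229 between the libraries of replicate 1 and 0.225 between those of replicate 2. The spread between replicates was thus large within each strain. At a common q-value cutoff for all lists the ratio was 0.229 in replicate 1 and 0.101 in replicate 2, so the near equality was lost there. Keeping the upper 50% of peaks gave 0.105 in replicate 1 and 0.128 in replicate 2. Limiting all lists to the same number of top peaks gave 0.149 and 0.172. Under these last settings the ratios stayed close, though less so than at the authors' cutoffs. The number of peaks differed less, with a ratio of 0.714 (0.551 and 0.886 within the replicates, exact permutation p = 0.333).

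Summed over the rest of the genome, the strains stood in the opposite order. H3K27me3 peaks covered 22.6% and 25.1% of the rest of the genome in Δasf1, against 17.2% and 16.6% in the wild type, a ratio of covered length of 1.41 (exact permutation p = 0.333). The covered share of the ends divided by that of the rest was 0.271 and 0.574 in Δasf1, so the ends had less H3K27me3 than the rest, and 1.56 and 3.87 in the wild type, where they had more. The ratio of these densities between the strains was 0.156 (0.174 and 0.148 within the replicates, exact permutation p = 0.333). No library of either strain lay on the other side of 1 from its replicate.

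H3 peaks did not separate the strains at the ends. They covered 10.7% and 7.92% of the ends in Δasf1, against 7.98% and 19.5% in the wild type. The ratio of the means was 0.677, with replicate 1 at 1.34 and replicate 2 at 0.406 (exact permutation p = 0.667). The covered share of the ends relative to the rest was 0.433 and 0.535 in Δasf1, against 0.378 and 0.621 in the wild type, and hence below 1 in all 4 H3 libraries (ratio of the strains 0.969, exact permutation p = 1). Without wild type replicate 2 the mean ratio of H3 covered length was 1.16, so this library decided its direction. On the log2 scale the strain ratio of covered length was −2.14 for H3K27me3 and −0.56 for H3, a difference of −1.58 (−2.55 within replicate 1 and −0.85 within replicate 2).

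**Figure D1:**
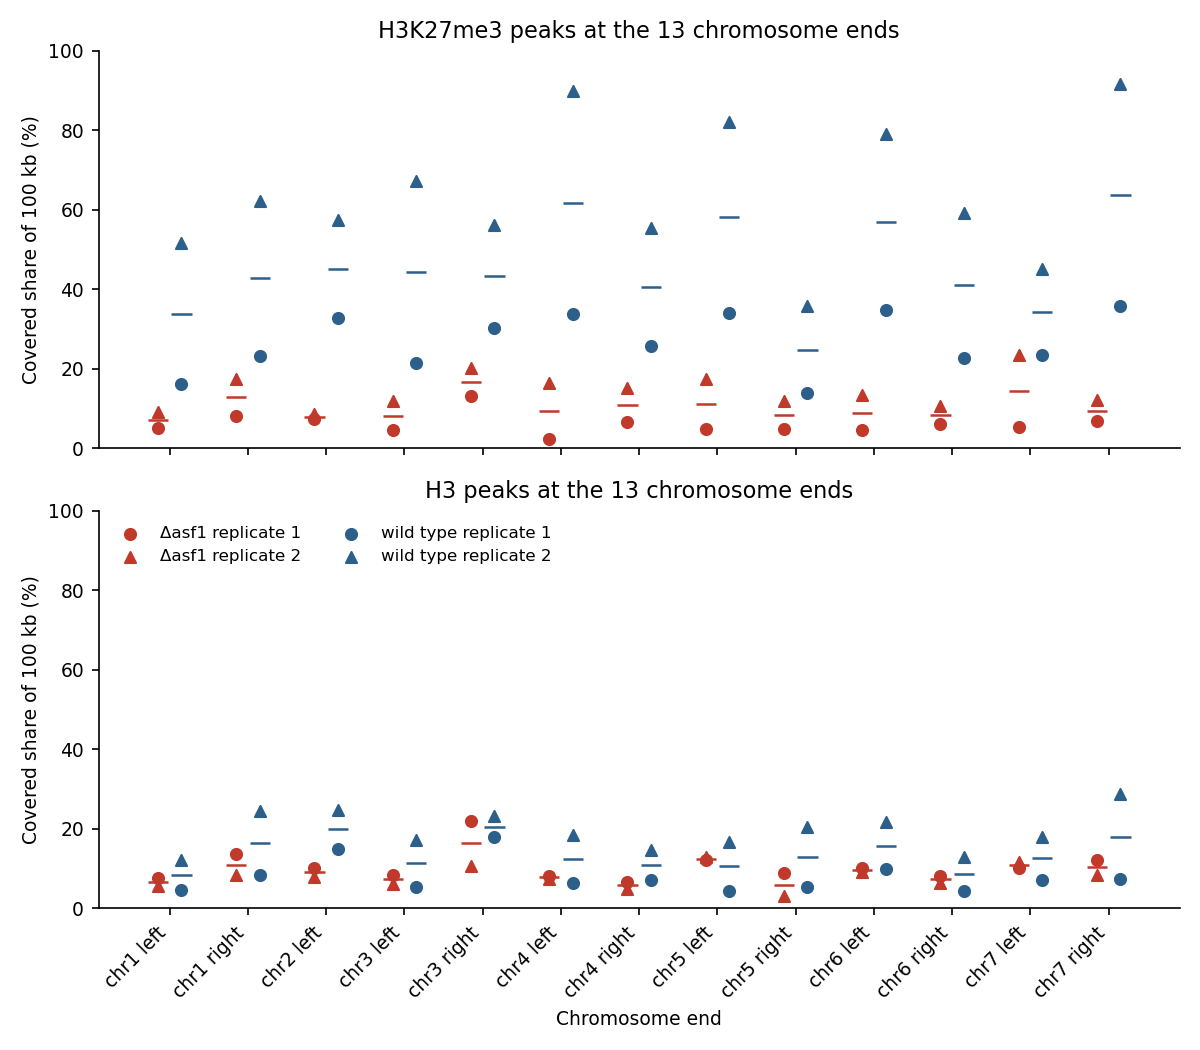
Share of each 100-kb chromosome end (%) inside H3K27me3 peaks (top) and H3 peaks (bottom) in Δasf1 (red) and the wild type (blue). Circles are replicate 1, triangles replicate 2 and horizontal lines the means of 2 replicates; in the top panel every Δasf1 point lies below the wild-type points of its own end except at chr7 left, where 23.461% in Δasf1 replicate 2 and 23.438% in wild type replicate 1 nearly coincide.

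The ends were then compared individually. An end was counted as lower in Δasf1 when both Δasf1 libraries lay below both wild-type libraries. For H3K27me3 this was the case at 12 of 13 ends, and no end was higher in Δasf1. Of 377 windows of 100 kb in the interior of the chromosomes 10.9% were lower by the same rule and 70.6% were higher. The median ratio of the strain means was 0.206 at the ends and 1.76 in the interior windows. As a difference it was −32.5 percentage points at the ends and 9.90 points in the interior. Within each replicate number Δasf1 was lower at all 13 ends. For H3, 2 of 13 ends were lower in Δasf1 and none was higher, beside 24.4% and 0.796% of the interior windows. The H3 count at the ends was therefore not above what the interior showed.

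**Figure D2:**
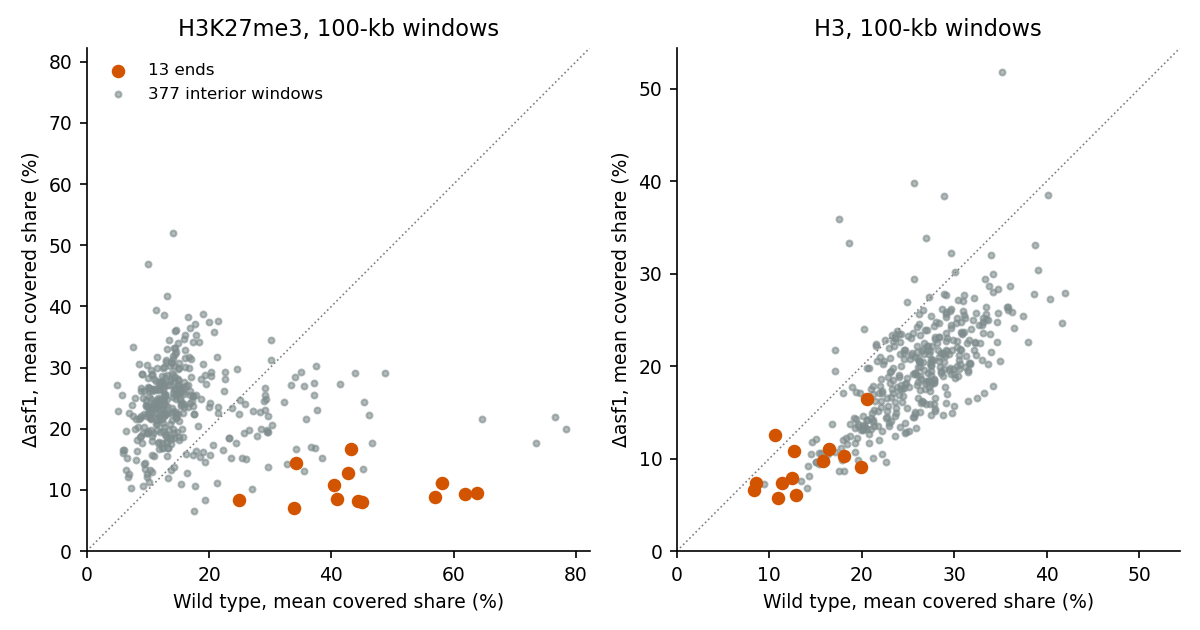
Mean covered share (%) of 100-kb windows in Δasf1 (y axis) against the wild type (x axis) for H3K27me3 (left) and H3 (right). Orange points are the 13 ends, grey points the 377 interior windows and the dotted line marks equal shares; for H3K27me3 all ends lie below the line whereas the median interior window has a ratio of 1.76.

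The most H3K27me3 cover in the wild type was found at 4 ends, chr7 right, chr4 left, chr5 left and chr6 left. At chr7 right 6.94% and 12.02% was covered in Δasf1, against 35.9% and 91.7% in the wild type, the lowest strain ratio of all ends (0.149). At chr4 left 2.42% and 16.3% was covered in Δasf1, against 33.8% and 89.8% in the wild type (ratio 0.152). The strains were far apart at both ends, and 2.42% was the lowest share of any end in any H3K27me3 library. Chr5 left had 4.80% and 17.4% in Δasf1, against 33.9% and 82.2% in the wild type. Chr6 left had 4.47% and 13.4% in Δasf1, against 34.7% and 79.2% in the wild type. As a set these ends were not set apart by H3, which covered 7.52% to 12.8% of them in Δasf1 and 4.46% to 28.7% in the wild type. The 28.7%, at chr7 right in wild type replicate 2, was however the highest H3 share of any end in any list.

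Another 5 ends were intermediate in the wild type. Chr3 left had 4.59% and 11.8% in H3K27me3 peaks in Δasf1, against 21.5% and 67.2% in the wild type. Chr1 right had 8.17% and 17.5% in Δasf1, against 23.3% and 62.2% in the wild type. Chr6 right had 6.18% and 10.7% in Δasf1, against 22.8% and 59.1% in the wild type. At each of them the higher Δasf1 library stayed below the lower wild-type library. At chr2 left the replicates of Δasf1 were closest, with 7.25% and 8.69%, against 32.7% and 57.3% in the wild type. Chr3 right had 13.2% and 20.2% in Δasf1, against 30.3% and 56.2% in the wild type, and thus the highest share in Δasf1 replicate 1.

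The remaining 4 ends had the lower wild-type means. In wild type replicate 1 chr4 right and chr7 left were nevertheless above some of the intermediate ends. Chr4 right had 6.55% and 15.1% in Δasf1, against 25.6% and 55.4% in the wild type. Chr1 left had 5.03% and 9.03% in Δasf1, against 16.2% and 51.6% in the wild type. Both kept the strains apart. Chr7 left had 5.21% and 23.5% in Δasf1, against 23.4% and 45.01% in the wild type, and was the end at which the strains overlapped (ratio 0.419, the highest). Chr5 right had 4.73% and 11.9% in Δasf1, against 13.8% and 35.8% in the wild type, and the smallest difference of all ends, −16.5 points. The wild-type replicates differed by a factor of 1.76 to 3.19 at individual ends, and replicate 2 was the higher at all 13, also in Δasf1 (1.198 to 6.72).

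For H3, chr2 left and chr4 right were the 2 ends counted as lower in Δasf1. At chr2 left H3 peaks covered 10.2% and 7.93% in Δasf1, against 15.0% and 24.9% in the wild type. At chr4 right they covered 6.57% and 4.998% in Δasf1, against 7.23% and 14.6% in the wild type. The difference at chr4 right rests on less than 1 percentage point between the nearest libraries. Chr3 right had the highest H3 share of the ends in Δasf1 replicate 1 and in wild type replicate 1, with 22.1% and 10.7% in Δasf1, against 18.1% and 23.2% in the wild type. Single libraries decided these H3 counts. Without wild type replicate 1 all 13 ends were lower in Δasf1, without Δasf1 replicate 1 it was 6, and without wild type replicate 2, 7 ends were higher in Δasf1.

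Next, H3K27me3 was set against H3 within each strain. In Δasf1 H3K27me3 covered 1.105 times the length that H3 covered at the ends (0.573 and 1.82 within the replicates, exact permutation p = 1). In the wild type the ratio was 3.30 (3.35 and 3.28 within the replicates, exact permutation p = 0.333). Without overlap of the libraries, H3K27me3 was above H3 at no end of Δasf1 and below it at none, while 20.4% of interior windows in Δasf1 were above and 0.531% below. In the wild type it was above H3 at 11 of 13 ends and below it at none, whereas 4.24% of interior windows were above and 71.9% below. Single libraries again decided the Δasf1 counts: without H3K27me3 replicate 1 of Δasf1, H3K27me3 was above H3 at 10 ends, and without H3K27me3 replicate 2 it was below H3 at 10 ends.

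The cover by H3K27me3 changed with the distance from the end. In the outermost 10 kb 13.7% and 45.9% was covered in Δasf1, against 81.7% and 99.4% in the wild type. At 20 to 30 kb it was 2.33% and 15.8% in Δasf1, against 33.3% and 90.4% in the wild type. At 90 to 100 kb it was 12.3% and 13.7% in Δasf1, against 15.3% and 20.8% in the wild type, so the strains were close in this bin. At 100 to 110 kb it was 13.1% and 13.1% in Δasf1, against 11.4% and 32.6% in the wild type. There wild type replicate 2 again lay above Δasf1 and wild type replicate 1 did not. In wild type replicate 2 at least 50% of the bin was covered at 12 or 13 of the ends in each of the bins out to 40 kb. In wild type replicate 1 this held at 13 ends in the outermost bin, at 7 in the bin from 10 to 20 kb and at 3 in the next.

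In Δasf1 the H3K27me3 cover was low in the middle of the ends. In replicate 1 the lowest bin was at 30 to 40 kb (1.02%), and in replicate 2 it was at 60 to 70 kb (4.36%), nearly equal to that at 40 to 50 kb (4.43%). Further in it was higher again, with 13.1% in both replicates at 100 to 110 kb. H3 cover was also low at 30 to 40 kb, with 1.74% and 2.98% in Δasf1, against 2.28% and 7.48% in the wild type. In Δasf1 replicate 2 it stayed low as far as 100 to 110 kb (2.88%), so no zone of low H3 cover was set off there. H3 peaks were most frequent in the outermost 10 kb, with 33.0% and 43.9% in Δasf1, against 26.4% and 58.9% in the wild type. The wild-type H3K27me3 profile thus lay above the H3 profile of its own strain over the outer 50 kb in both replicates, and that of Δasf1 did so in replicate 2 only.

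**Figure D3:**
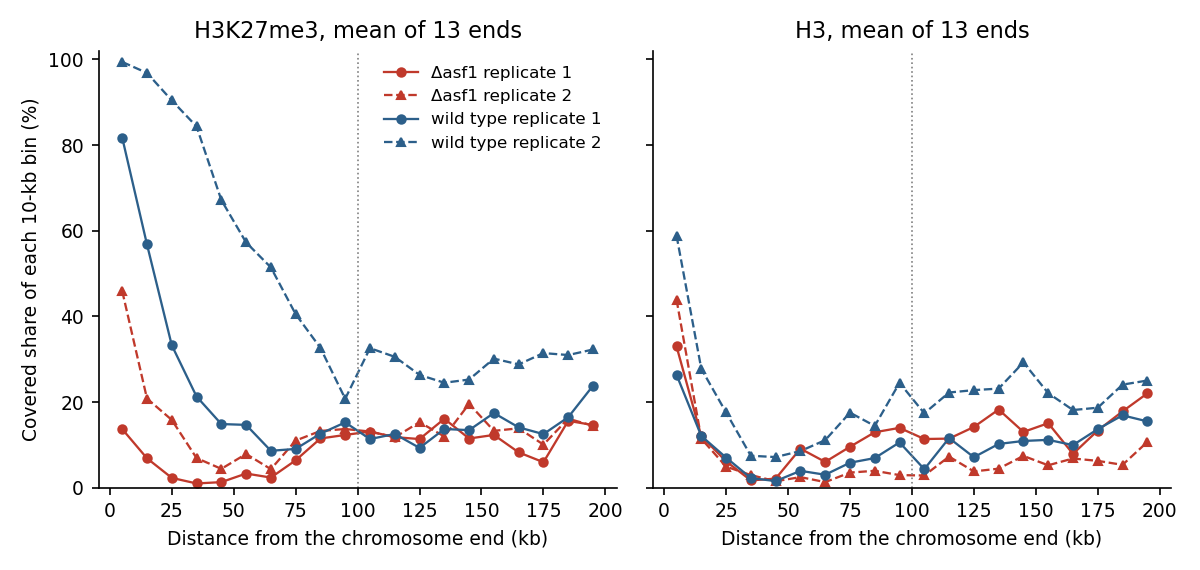
Covered share (%) of 10-kb bins by distance from the chromosome end (kb), averaged over 13 ends, for H3K27me3 (left) and H3 (right). Red lines are Δasf1 and blue lines the wild type, solid with circles for replicate 1 and dashed with triangles for replicate 2, and the dotted line marks 100 kb; the outermost H3K27me3 bin is at 13.7% and 45.9% in Δasf1, against 81.7% and 99.4% in the wild type.

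The length of the terminal H3K27me3 run was taken as the distance from the end to the inner edge of the last peak before a gap of more than 5 kb, a measure chosen after the data had been seen. Its median over the ends was 2.66 and 11.2 kb in Δasf1, against 24.4 and 55.9 kb in the wild type. In Δasf1 replicate 1 it was 0 at 4 ends, where no peak lay within 5 kb of the end, and the longest run of that strain was 22.2 kb. In the wild type it reached from 6.57 to 48.4 kb in replicate 1 and from 32.8 to 122.2 kb in replicate 2. The runs of Δasf1 were shorter than both of the wild type at 12 of 13 ends for H3K27me3 and at 1 for H3, a count with no counterpart in the interior. With a gap of 2 kb the medians were 0 and 4.57 kb in Δasf1, against 11.2 and 49.6 kb in the wild type. With a gap of 10 kb they were 4.35 and 22.2 kb in Δasf1, against 46.6 and 89.4 kb in the wild type.

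No very wide H3K27me3 peak was found at the ends of Δasf1, in contrast to those of the wild type. Peaks of at least 10 kb numbered 0 and 0 in Δasf1, against 4 and 19 in the wild type. The 19 peaks of wild type replicate 2 alone covered 45.6% of the ends. In the rest of the genome there were 4 and 1 such peaks in Δasf1, against 7 and 30 in the wild type, so the strains stood in the same order there. More of the wide wild-type peaks lay outside the ends than at them, but the ends are only 3.30% of the genome. For their length the ends thus held more of these peaks than the rest. Among H3 end peaks of this width there were 0 and 0 in Δasf1, against 0 and 1 in the wild type. At a limit of 5 kb the H3K27me3 counts were 0 and 5 in Δasf1, against 22 and 32 in the wild type. At 20 kb only wild type replicate 2 had any, 14. The median width of all end peaks was 702 and 1110 bp in Δasf1, against 1195 and 1521 bp in the wild type (ratio of the means 0.667, exact permutation p = 0.333). The widest peak of an end was narrower in both Δasf1 libraries than in both wild-type libraries at all 13 ends for H3K27me3 and at 3 ends for H3. Of the interior windows 11.9% were narrower in Δasf1 by this rule and 52% wider for H3K27me3, and 21.8% were narrower for H3.

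**Figure D4:**
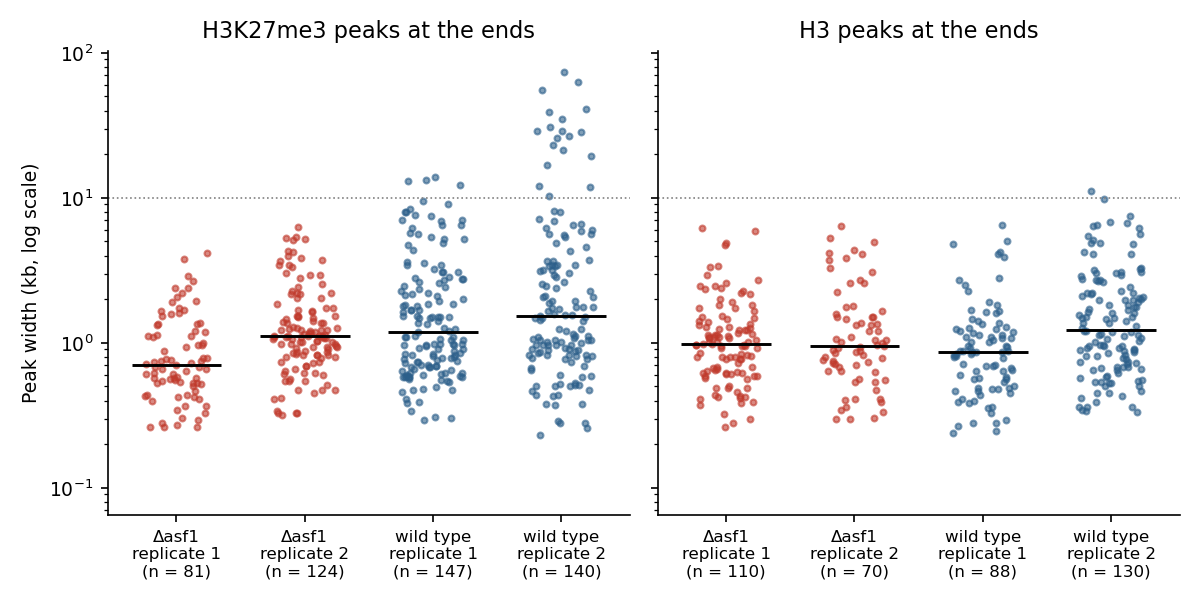
Width (kb, log axis) of each end peak by library for H3K27me3 (left) and H3 (right). Points are peaks, with Δasf1 in red and the wild type in blue, black lines are medians and the dotted line marks 10 kb; the H3K27me3 medians are 702 and 1110 bp in Δasf1, against 1195 and 1521 bp in the wild type, and points above 10 kb are found only in the wild type.

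The widest peak was chr4:121-74032 of wild type replicate 2, which spanned 73.9 kb and touched 22 genes at a fold enrichment of 2.09. H3K27me3 peaks covered 2.51% of this region in Δasf1 replicate 1 and 18.5% in Δasf1 replicate 2, against 43.6% in wild type replicate 1. The widest H3K27me3 peaks of Δasf1 at the same end were chr4:11021-12010 in replicate 1 (0.990 kb) and chr4:11539-15758 in replicate 2 (4.22 kb). Both lay about 11 kb inside the end, within the span of the wild-type peak.

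At chr6 left wild type replicate 2 had a peak of 63.2 kb (chr6:117-63271, 20 genes), of which 3.87% and 17.7% lay in H3K27me3 peaks of Δasf1 and 45.9% in those of wild type replicate 1. At chr3 left its peak of 55.8 kb (chr3:128-55897, 20 genes) was covered to 3.83% and 21.2% in Δasf1 and to 38.6% in wild type replicate 1. At chr7 right a peak of 40.7 kb (chr7:4052770-4093431, 13 genes) reached the last base of the chromosome and was covered to 1.07% and 14.3% in Δasf1 and to 57.5% in wild type replicate 1. In each of these regions wild type replicate 1 had more cover than either Δasf1 library. The widest H3K27me3 peaks of Δasf1 at any end were chr3:5623015-5627172 in replicate 1 (4.16 kb) and chr6:514-6782 in replicate 2 (6.27 kb). Wild type replicate 1 had its own widest peaks at chr2:13710-27655 (13.9 kb), chr3:5691346-5704645 (13.3 kb), chr4:5101333-5114484 (13.2 kb) and chr7:4081231-4093400 (12.2 kb).

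Enrichment within the end peaks differed at the top rather than in the middle. The median fold enrichment was 1.37 and 1.29 in Δasf1, against 1.36 and 1.38 in the wild type (two-sided exact permutation, p = 0.667). The highest fold at the ends was 1.57 and 1.59 in Δasf1, against 1.85 and 2.74 in the wild type (ratio of the means 0.688, exact permutation p = 0.333). The value of 2.74 belonged to chr5:4525938-4538051, a peak of 12.1 kb that ended at the last base of chromosome 5. Of this region 3.38% and 48.2% lay in Δasf1 peaks and 54.0% in those of wild type replicate 1. Here wild type replicate 1 was thus close to Δasf1 replicate 2. The −log10 q of this chromosome 5 peak, 62.7, was the highest among the widest peaks of the ends. At 12 of 13 ends the highest H3K27me3 fold of both Δasf1 libraries was below that of both wild-type libraries, while in the interior 4.51% of windows were below and 17.2% above by this rule. For H3 the order was the other way with a small distance, 1.66 and 1.68 in Δasf1, against 1.58 and 1.57 in the wild type (two-sided exact permutation, p = 0.333).

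An implied background was computed for each peak as the Poisson mean at which its fold and p-value fit together. Whether this value equals the background that the caller used was not tested. The implied background is given on a log2 scale relative to the median of the same list. At the end peaks it was 0.14 and 0.14 for H3K27me3 in Δasf1, against 0.35 and 0.09 in the wild type (difference −0.08, exact permutation p = 1). For H3 it was 0.16 and 0.17 in Δasf1, against 0.36 and 0.33 in the wild type (difference −0.17, exact permutation p = 0.333). For peaks in the outermost 30 kb, a subset chosen after the data had been seen, it was 0.23 and 0.24 for H3K27me3 in Δasf1, against 0.44 and 0.40 in the wild type. For H3 peaks there it was 0.19 and 0.25 in Δasf1, against 0.50 and 0.47 in the wild type. These values exist only at called peaks and rest on unequal numbers of them, 31 and 54 H3K27me3 peaks in Δasf1, against 53 and 16 in the wild type. In the outermost 30 kb the called peaks of the wild type thus had the higher implied background for both antibodies, and its part in the results was not tested.

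Overlap between libraries differed between the ends and the rest of the genome. In Δasf1 47.8% of the H3K27me3 length of replicate 1 lay in peaks of replicate 2 at the ends, against 59.4% in the rest, and the reverse shares were 20.3% at the ends and 53.3% in the rest. In the wild type 92.1% of the length of replicate 1 lay in peaks of replicate 2 at the ends, against 37.3% in the rest. The reverse shares were 38.6% at the ends and 38.8% in the rest. The wild-type replicate with fewer covered bases was thus nearly contained in the other at the ends. The H3K27me3 length of Δasf1 at the ends lay mostly inside wild-type peaks. Of it 64.9% and 82.5% was in peaks of wild type replicate 2, against 27.1% and 28.9% in the rest of the genome. That library itself covered 64.1% of the ends and 16.6% of the rest, so the 64.9% was near its cover of the ends. In peaks of wild type replicate 1 the shares were 68.6% and 74.0% at the ends, against 50.2% and 42.4% in the rest. Wild type replicate 1 itself covered 26.8% of the ends and 17.2% of the rest. These shares grow with the length that the other library covers, and no test was made of them.

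The overlap of H3K27me3 with H3 peaks was also examined. Of the H3K27me3 length at the ends, 73.2% and 34.4% lay in H3 peaks of the same replicate in Δasf1, against 26.3% and 24.4% in the wild type (means 53.8% ± 27.4 and 25.4% ± 1.34, SD, n = 2 each). In the rest of the genome the shares were 73.1% and 36.7% in Δasf1, against 64.5% and 50.5% in the wild type. In Δasf1 these shares at the ends were close to the rest, and in the wild type they were lower at the ends in both replicates. They grow with the length that H3 peaks cover, for which they were not corrected. H3 peaks covered 10.7% and 7.92% of the ends in Δasf1, against 24.7% and 14.8% of the rest. In the wild type H3 peaks covered 7.98% and 19.5% of the ends, against 21.1% and 31.4% of the rest. The contrast between ends and rest was thus not tested apart from H3 cover. At the ends the overlap shares of the Δasf1 replicates differed by more than the strain means did.

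The gene table places 398 genes at the ends, of which 387 are protein-coding and 11 are tRNA genes, and it gives them locus tags without names or functions. At least 50% of the gene length lay in H3K27me3 peaks for 26 and 65 genes (6.53% and 16.3%) in Δasf1, against 106 and 258 (26.6% and 64.8%) in the wild type. No H3K27me3 peak touched 81.7% and 67.8% of the end genes in Δasf1, against 56.0% and 20.6% in the wild type. Genes outside the ends showed the opposite order, with 28.04% and 30.36% at least 50% covered in Δasf1, against 20.6% and 17.9% in the wild type. Both Δasf1 libraries covered 12 end genes (3.02%) to this degree, both wild-type libraries 100 (25.1%), and all 4 libraries 10 (2.51%). Of the genes in the rest 16.9% were covered in both Δasf1 libraries, 7.39% in both wild-type libraries and 3.06% in all 4. For H3 the numbers were 56 and 35 genes in Δasf1, against 39 and 92 in the wild type, and overlapped. As shares they were 14.1% and 8.79% in Δasf1, against 9.80% and 23.1% in the wild type, below the 31.04% and 16.8% of Δasf1 and the 25.8% and 39.7% of the wild type in the rest.

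Genes were called covered in the wild type only when at least 50% of their length lay in peaks in both wild-type libraries and under 10% in both Δasf1 libraries. At the ends 34 of 398 genes (8.54%) met this rule, all of them protein-coding, against 0.938% of the 10337 genes in the rest of the genome. The reverse pattern was found for no end gene, against 1.62% in the rest. The genes lay at 12 ends, with 5 each at chr4 left and chr6 left, 4 each at chr3 left, chr4 right and chr7 right, and none at chr5 right. Of the 34 genes 16 had under 10% of their length in H3 peaks in all 4 H3 libraries. The share of all end genes that meet this H3 rule was not computed, so the count sets nothing apart. H3 peaks left 72.9% and 84.2% of all end genes untouched in Δasf1, against 80.4% and 64.8% in the wild type. The number of genes covered in the wild type only was 161 without wild type replicate 1 and 74 without Δasf1 replicate 2. It thus depends on the library with the narrower or wider cover in each strain.

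At the genes nearest to the ends Δasf1 replicate 1 stood furthest from the wild type, and Δasf1 replicate 2 was closer to it. Of the 13 genes nearest to an end, 4 and 11 were at least 50% covered by H3K27me3 in Δasf1, against 12 and 13 in the wild type. In Δasf1 8 and 1 of them were not touched by a peak, and none was untouched in the wild type. For H3 the number at least 50% covered was 8 and 7 in Δasf1, against 8 and 11 in the wild type. SMAC4_13173, nearest to chr2 left, was the only one of them covered in the wild type only, with 0% and 0% in Δasf1, against 100% and 100% in the wild type. SMAC4_14038, nearest to chr6 right, had 0% and 100% in Δasf1, against 100% and 100% in the wild type, so its Δasf1 replicates disagreed. SMAC4_13717 at chr5 left and SMAC4_13406 at chr3 left showed the same values as SMAC4_14038.

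Some terminal genes were covered by H3K27me3 in both strains. SMAC4_12987, nearest to chr1 left, was covered to 99.8% and 99.95% in Δasf1, against 100% and 100% in the wild type, and to at least 95.9% in the 4 H3 lists. SMAC4_09263, nearest to chr6 left, was covered to 92.0% and 97.3% in Δasf1, against 100% and 100% in the wild type. SMAC4_14039, nearest to chr7 left, was covered to 53.0% and 71.5% in Δasf1, against 100% and 100% in the wild type. All 3 were also at least 50% covered in each H3 library. At SMAC4_13577, nearest to chr3 right, the cover was 59.9% and 100% in Δasf1, against 100% and 100% in the wild type.

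At the other ends the nearest gene covered in the wild type only lay further in. SMAC4_13715, the gene next to the outermost at chr4 right, had 0% and 0% in Δasf1, against 100% and 100% in the wild type, and 0% in all 4 H3 lists. SMAC4_13409 at chr3 left, SMAC4_09871 at chr5 left, SMAC4_13878 at chr6 left and SMAC4_09803 at chr7 left had the same H3K27me3 and H3 values. These 5 genes had full H3K27me3 cover in both wild-type libraries and no peak of either antibody in Δasf1. Their H3K27me3 contrast was set by the rule that picked them. H3 peaks left 64.8% to 84.2% of all end genes untouched, depending on the list, so the lack of H3 peaks sets nothing apart. SMAC4_14034 at chr6 right, the ninth gene from the end, had 0% and 0% in Δasf1, against 86.6% and 100% in the wild type. SMAC4_09702 at chr1 left had 0% and 0% in Δasf1, against 100% and 100% in the wild type, with 43.0% in H3 peaks of wild type replicate 2. SMAC4_13579 at chr4 left had 0% and 6.14% in Δasf1, against 100% and 100% in the wild type, and SMAC4_13574 at chr3 right had 0% and 2.44% in Δasf1, against 100% and 100%. SMAC4_14171 at chr7 right was covered likewise by H3K27me3, with 0% and 0% in Δasf1, against 100% and 100% in the wild type. There the H3 lists showed the opposite order, with 64.5% and 65.5% in Δasf1, against 0% and 0% in the wild type. SMAC4_09081 at chr1 right had 0% and 0% in Δasf1, against 82.1% and 100% in the wild type.

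Older locus tags tied 7 end genes to a further end gene, 6 of them at another end. SMAC4_13406 at chr3 left carries the older tag SMAC_04514, whereas SMAC4_04514 is the nearest gene of chr5 right. SMAC4_13577 at chr3 right carries SMAC_09263, whereas SMAC4_09263 is the nearest gene of chr6 left. SMAC4_13585, SMAC4_13586 and SMAC4_13587 at chr4 left carry the tags SMAC_09598 to SMAC_09600, whose SMAC4 counterparts lie at chr6 right. Such pairs may be copies that share reads, and how reads with several matches were placed is not given in the sources used here, so values of these genes are uncertain.

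The peaks nearest to the limit of 100 kb are given for each list. The H3K27me3 peaks just inside it had folds of 1.33 and 1.397 in Δasf1, against 1.42 and 1.51 in the wild type, at distances of 99.5 to 99.99 kb. Those just outside had folds of 1.38 and 1.27 in Δasf1, against 1.34 and 1.41 in the wild type, at 100.1 to 101.4 kb. For H3 the folds inside were 1.51 and 1.39 in Δasf1, against 1.37 and 1.301 in the wild type, and those outside were 1.35 and 1.34 in Δasf1, against 1.37 and 1.19 in the wild type. With 1 peak for each side and list, the outer peak had the lower fold in 7 of 8 lists.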

How the data were processed

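ChIP-seq of *S. macrospora* mycelium gave 8 precipitated libraries (4 groups with 2 replicates each) and 8 input samples, which were not analysed here. Per the submitters' processing notes fastp, Bowtie2 and MACS2 were used (versions, settings and use of inputs are not given in the sources used here). Peak names mention trimming and mapping only in replicate 1. The deposited broad peak lists hold a score, a fold enrichment (ratio) and −log10 p-values and q-values per peak, and peaks were called by the authors per sample.

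With SciPy 1.17.1, pandas 2.3.3 and NumPy 2.4.6 under Python 3.11.15 (figures with matplotlib 3.10.9), peaks were clipped to the ends, merged and summed. Positions count from 1 in assembly Sm_v04_wtN. Genes came from a RefSeq table of 10804 genes of assembly ASM3387043v1, used for locus tags and order. Peak length in genes was greatest at an offset of at most 100 bp in 56 of 56 pairs of chromosome and library (median 77.0%, against 59.8% at 3 to 5 kb). Strains were compared by exact two-sided permutation of log2 values, and windows and genes by non-overlap. The implied background is the Poisson mean at which fold and p-value of a peak fit together. Scripts were checked on simulated peaks. Named were the nearest gene and the nearest strain-specific gene of each end and the widest peak of each end and library. Members, lists and tests were chosen with earlier results of these data known. Depth is unknown, and the permutation p-values depend only on how the values of these libraries are arranged between the groups.

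Alternatives were windows of 50 and 200 kb, any peak touching the window, common q-value cutoff, upper 50% of peaks, equal numbers of top peaks, peaks within 1 kb joined, chr2 right included, other width and gene limits, a replicate block, and omission of each library in turn.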

Additional observations from a re-analysis of the deposited data

How the results depend on the processing

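With 2 replicates in each group and permutation p-values of at least 0.333, no result can lose or gain significance, and only directions and sizes were compared. Of 286 recomputed values 256 kept their direction or stayed within the limit set for them, 9 reversed and 21 moved. For H3K27me3 the ratio of covered length (Δasf1 over wild type) was 0.122 to 0.346 over 9 alternatives and 0.135 to 0.384 when 1 library was left out. Its ratio of peak number was 0.404 to 0.824 and 0.564 to 0.864, and its ratio of density at the ends over the rest was 0.0890 to 0.233 and 0.100 to 0.271. The number of ends lower in Δasf1 was 11 to 13 for H3K27me3 throughout these alternatives. At a common q-value cutoff (−log10 q of 2.05) H3K27me3 covered 6.12% and 6.15% of the ends in Δasf1, against 26.8% and 60.8% in the wild type, and the ratio within replicate 2 was 0.101. With a replicate block (the mean of the log2 ratios within replicate numbers) the ratio of H3K27me3 covered length was 0.227 and that of H3 0.737, and no direction changed. The labels do not say that replicate numbers mark shared cultures, and with the block the smallest possible p is 0.5.

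For H3, ratios near 1 changed direction. Its density ratio was 1.08 in windows of 50 kb and 1.11 with the right end of chromosome 2 included, and its peak number ratio was 1.01 with equal numbers of top peaks. When 1 library was left out, the H3 ratio of covered length was 0.477 to 1.16, of peak number 0.642 to 1.02 and of density 0.780 to 1.28. The number of ends lower in Δasf1 for H3 was 1 in windows of 200 kb and 2 to 13 when 1 library was left out, and the number higher was 1 with the right end of chromosome 2 and 0 to 7 with 1 library left out. In Δasf1 H3K27me3 was above H3 at 1 end with peaks within 1 kb joined, below it at 1 with equal numbers of top peaks, and above or below it at 0 to 10 ends with 1 library left out. In the wild type it was above H3 at 7 ends in windows of 200 kb and below it at 1 with the right end of chromosome 2. Genes covered in the wild type only numbered 64 at the common cutoff and 61 for any overlap against none, and 34 to 161 with 1 library left out. Genes covered in Δasf1 only numbered 1 in windows of 200 kb and 1 for any overlap, and 0 to 4 with 1 library left out. The difference in implied background for H3K27me3 was −0.21 to 0.055 (log2) with 1 library left out. The cause of these changes was not tested. Leaving out a library left groups of 1, and these values have no test. Joined peaks have no fold or p-value, so no implied background was computed for them.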
